A study of Mus musculus with 10 samples.

Results

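The mitochondrial respiratory chain and the ATP synthase are described here gene by gene and complex by complex, in sorted marrow cells enriched for stem cells, with and without Mll. The genes were chosen by symbol: every gene whose name begins with Nduf, Uqcr or Atp5, the 4 genes Sdha to Sdhd, the genes numbered from Cox4 to Cox8, and Cyc1. Of 18193 genes with a probe set that names them alone, 91 had such a symbol: 44 of complex I, 4 of complex II, 9 of complex III, 17 of complex IV and 17 of complex V. Each gene was read from the probe set with the highest mean signal over all 10 arrays.

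The respiratory chain sits in the inner mitochondrial membrane. Complex I (NADH dehydrogenase) and complex II (succinate dehydrogenase) pass electrons to ubiquinone, complex III (the cytochrome bc1 complex) passes them on to cytochrome c, and complex IV (cytochrome c oxidase) passes them to oxygen. Complexes I, III and IV pump protons across the membrane, and complex V (the ATP synthase) makes ATP from the returning flow. Most subunits are encoded in the nucleus, and a few core subunits in mitochondrial DNA. Adult blood stem cells are known for low oxidative metabolism, which rises as they become committed progenitors.

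The study compared 5 mice per group, with 1 Affymetrix Mouse Genome 430 2.0 array for each mouse. Control mice carried 2 loxP-flanked alleles of Mll (Mll F/F) and no cre, and the Mll-deficient mice carried Mx1-cre beside the same alleles (Mx1-cre;Mll F/F). Mll, now called Kmt2a, is a histone methyltransferase needed to maintain blood stem cells. All mice were females of 8 weeks on the B6.SJL-Ptprca Pep3b/BoyJ background, and both groups received the same 3 injections of pI:pC, 48 h apart, at 10 µg per g of body weight plus 50 µg. Marrow was taken on day 6, and cells of the LSK/CD48- gate (lineage-negative, Sca-1+, Kit+, CD48-) were sorted. The Mx1 promoter answers to interferon and is not restricted to blood cells. Cre and the loss of Mll came together in this design, so their effects cannot be told apart. In bulk RNA, a change in which cells were sorted and a change of RNA within each cell cannot be told apart either.

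The values are MAS5 signals, a linear measure of probe brightness, and differences below are on the scale of log2(signal + 16). Both probe sets of Kmt2a had lower means in the Mll-deficient arrays, with differences of -0.38 ± 0.35 and -0.55 ± 0.31 (SE), but neither passed the test (limma, adjusted p over all probe sets = 0.736 and 0.498). Whether they lie in the deleted part is not given in the sources used here, and they are no check of the genotype. Control replicate 5 stood apart from the other 9 arrays. Its mean correlation with its group was 0.926, against 0.952 to 0.962 for the others, and its log2 ratio of 3′ to middle control probes, a sign of RNA truncation, was 5.19, against 1.73 to 3.86. Of 12580 genes tested, 694 passed an adjusted p of 0.05 in limma's test, 473 of them higher in the Mll-deficient cells and 221 lower. After each array was centred on its median the split was 471 and 107. The median difference over all tested genes was -0.04.

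Part of the respiratory chain and ATP synthase genes rose in the Mll-deficient cells, led by Atp5g1 (by 1.71 ± 0.26, SE), a gene for the rotating ring of ATP synthase, Atp5k (by 1.57 ± 0.27), and the complex III genes Uqcr11 and Uqcrq (by 1.36 ± 0.30 and 1.19 ± 0.23). Of the 91, 85 were bright enough to be tested; 12 rose, 0 fell and 73 did not pass the test. The 12 are 14.1% of those tested. Of all genes tested, 5.52% passed in either direction, 3.76% higher and 1.76% lower. Differences were above 0 for 82 of the 85, against 46.6% of all tested genes, and their median was 0.47; 78 of the 85 were above 0 after quantile normalization and 83 after median centring. An unadjusted p under 0.05 was reached by 41 of the 85, all of them higher, against 10.5% of all tested genes that were higher at that threshold. For 15 of the 85 every Mll-deficient array lay above every control, against 4.42% of all tested genes; the reverse held for 0, against 2.54%. A difference of at least 1, which is 2-fold on this scale, was found for 9 of the 85, against 2.5% of all tested genes. Among tested genes, 3 had a difference below 0: Cox7c, Cox7a2l and Cox6c, all of complex IV. Another probe set of Cox6c had 0.57 ± 0.21 (adjusted p = 0.149 over all tested probe sets). The 6 genes under the filter were Ndufa4l2, Ndufb4, Cox4i2, Cox7a1, Cox7b2 and Cox8b. For Ndufb4 this holds for the probe set that names it alone. The brighter probe set shared by Ndufb4, Ndufb4b and Ndufb4c had mean signals of 801 in controls and 1310 in Mll-deficient cells. Its difference was 0.72 ± 0.29 (adjusted p = 0.198 over all tested probe sets).

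Tested markers of red cell precursors were also higher in the Mll-deficient cells. Of 17 listed, 15 had a probe set of their own and 14 were tested; 10 rose, 0 fell, and differences were above 0 for all 14, at a median of 1.56. Their summed signal ran from 4107 to 8155 in controls and from 17852 to 20496 in Mll-deficient arrays, where it was highest in replicates 3 and 5. The defining marker Hba-a1 was under the filter. Of 7 tested markers of the stem cell gate and identity, 2 fell: Mecom fell by 2.83 and Hlf fell by 1.48 on the log2 scale (adjusted p = 0.000658 and 0.0384). Kit, part of the gate, had -0.73 ± 0.27 (adjusted p = 0.132). The summed signal of that list ran from 1699.7 to 5224 in controls and from 861 to 2666 in Mll-deficient arrays. Among markers of granulocytes and monocytes (14 tested), megakaryocytes (7), B cells (6) and T and NK cells (4), 0 passed. The granulocyte and monocyte list had the largest summed signal of the marker lists. It ran from 115573 to 173197 in controls and from 120712 to 202045 in Mll-deficient arrays. Differences were above 0 for 10 of its 14 genes, at a median of 0.12. The megakaryocyte markers had differences below 0 for all 7. The summed signal of the T and NK list ran from 282 to 613 in controls and from 646 to 1376 in Mll-deficient arrays, and the T cell markers Cd3e, Cd3g and Cd4 were under the filter. Nkg7 made up most of that sum, with mean signals of 447 in controls and 871 in Mll-deficient cells (adjusted p = 0.0583). The part of these cell markers in the result was not tested.

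**Figure D1:**
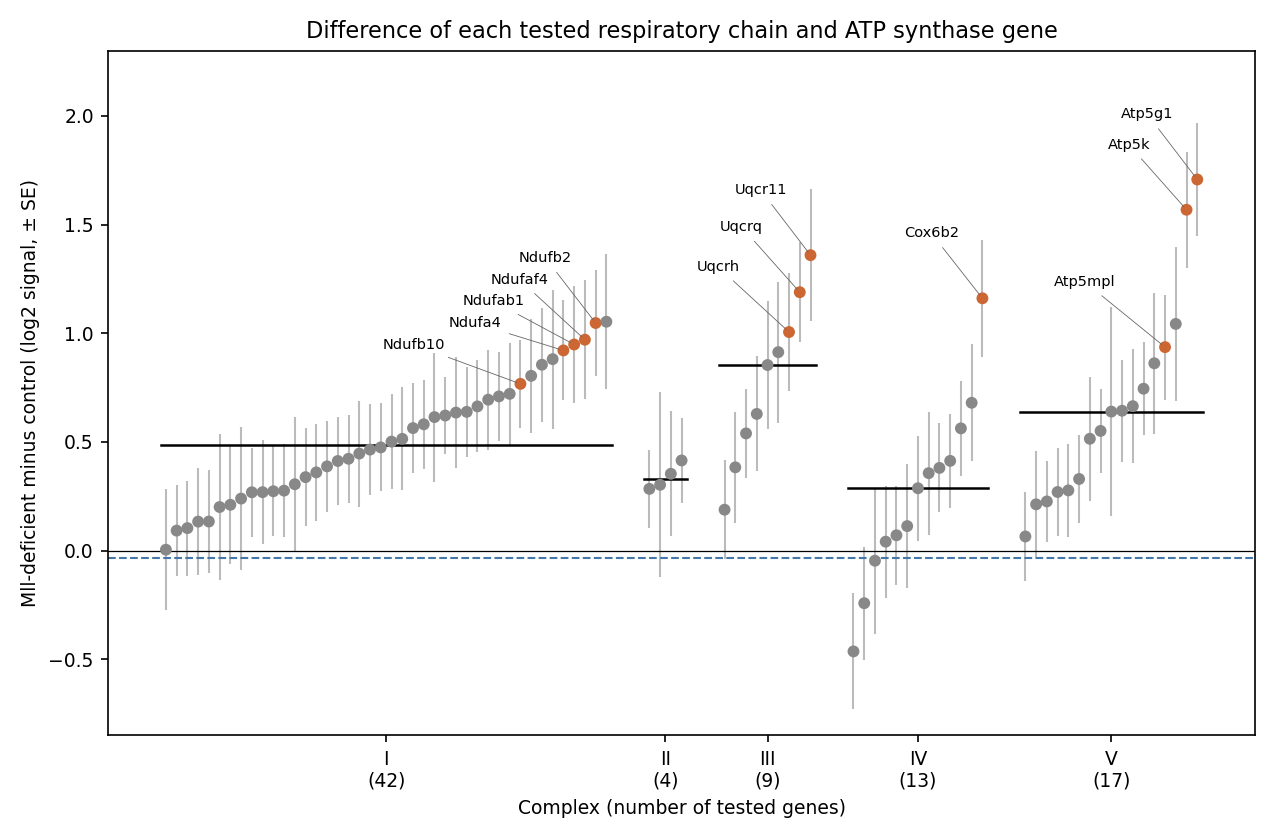
Each point is the difference of 1 tested gene, Mll-deficient minus control, on the log2(signal + 16) scale with its standard error, sorted within each complex (5 arrays per group). Orange points are the 12 genes that rose, black bars are the median of each complex, and the dashed line is the median of all tested genes, -0.04. The medians run from 0.29 in complex IV to 0.85 in complex III.

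Counts of risen genes in each complex can be read beside the 3.76% of all tested genes that were called higher. In complex I, 5 of 42 tested genes rose, with a median difference of 0.49. Complex II had 0 of 4 and a median of 0.33. In complex III, 3 of 9 rose, with a median of 0.85, and 7 of the 9 had an unadjusted p under 0.05. Complex IV had 1 of 13 and a median of 0.29, with 3 at an unadjusted p under 0.05. In complex V, 3 of 17 rose, with a median of 0.64, and 5 of the 17 had arrays without overlap. These counts go by gene symbol. With the 8 assembly factors left out and Ndufa4 moved to complex IV, 3 of 33 rose in complex I. In complex IV 2 of 14 then rose, and the medians of complexes I and IV were 0.47 and 0.32. Whether the complexes differ from each other was not tested.

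The promoters of 5 genes are printed because the strongest changes lie in complexes V and III: those of Atp5g1, Atp5k and Uqcr11, which had the 3 largest differences, and those of Atp5g2 and Atp5g3, which encode the same mature protein as Atp5g1. Each is the 250 bases before the gene's RefSeq start in GRCm38.p6, on the minus strand, written 5′ to 3′ along the gene: Atp5g1 at chr11:96075632-96075881, Atp5g2 at chr15:102671048-102671297, Atp5g3 at chr2:73911327-73911576, Atp5k at chr5:108434400-108434649 and Uqcr11 at chr10:80406822-80407071. Capitals mark a match to GCGCANGCG (the core of the Nrf1 motif) or CCGGAAG (an ETS core, as bound by Gabpa), on either strand; these factors and YY1 (searched as GCCATNTT) are known regulators of respiratory chain genes.
Atp5g1: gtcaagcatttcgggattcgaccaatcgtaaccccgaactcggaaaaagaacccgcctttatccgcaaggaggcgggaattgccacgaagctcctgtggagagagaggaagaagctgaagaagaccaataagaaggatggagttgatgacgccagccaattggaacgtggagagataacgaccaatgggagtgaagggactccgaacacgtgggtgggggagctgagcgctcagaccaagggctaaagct
Atp5g2: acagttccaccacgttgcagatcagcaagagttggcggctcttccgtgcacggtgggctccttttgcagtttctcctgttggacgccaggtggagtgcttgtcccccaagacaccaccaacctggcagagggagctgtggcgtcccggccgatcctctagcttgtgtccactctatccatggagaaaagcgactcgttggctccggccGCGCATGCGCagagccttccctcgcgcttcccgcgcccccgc
Atp5g3: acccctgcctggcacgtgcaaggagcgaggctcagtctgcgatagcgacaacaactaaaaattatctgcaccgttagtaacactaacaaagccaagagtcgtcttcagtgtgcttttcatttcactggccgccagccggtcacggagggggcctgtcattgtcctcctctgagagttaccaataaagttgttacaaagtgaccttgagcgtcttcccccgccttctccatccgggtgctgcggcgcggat
Atp5k: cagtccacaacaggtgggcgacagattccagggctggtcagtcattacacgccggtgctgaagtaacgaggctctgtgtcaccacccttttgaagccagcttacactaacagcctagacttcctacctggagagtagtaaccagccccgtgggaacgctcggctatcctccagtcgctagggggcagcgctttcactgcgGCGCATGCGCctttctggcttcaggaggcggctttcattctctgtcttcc
Uqcr11: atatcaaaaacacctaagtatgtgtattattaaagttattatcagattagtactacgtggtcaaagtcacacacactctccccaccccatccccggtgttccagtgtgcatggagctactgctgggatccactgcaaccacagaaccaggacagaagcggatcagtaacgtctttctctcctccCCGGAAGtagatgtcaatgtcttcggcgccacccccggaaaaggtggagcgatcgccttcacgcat
Within these windows, Atp5g2 and Atp5k each hold 2 overlapping matches to the Nrf1 letters, 1 on each strand, Uqcr11 holds the ETS letters once, and Atp5g1 and Atp5g3 hold none of the 3 motifs. RefSeq promoters matched 74 of the 91 genes, with 79 promoters of 300 bases (250 before and 50 after the start). In these longer windows the Nrf1 letters also occur in Uqcr11 (at -5 from the start) and Atp5g3 (at 13). The ETS letters occur there in Atp5k (at 12), and Atp5g1 still holds none of the 3 motifs. The Nrf1 letters occurred in 26.6% of those 79, against 6.25% of all 32851 promoters in the table. The ETS letters occurred in 24.1%, against 8.86%, and the YY1 letters in 21.5%, against 6.05%. Overlaps between matches of different motifs numbered 0 in these promoters. Their median GC content was 59.0%, against 52.7% for all promoters. Of the 10 risen genes with a promoter in the table, 5 held at least 1 of the 3 motifs, as did 46 of all 74 and 5614 of 27025 genes in the whole table. These matches describe letters in a window and were not related to binding.

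In complex V, the largest change was in Atp5g1, a gene for the ring that turns as protons pass. Subunit c of the ring is encoded by 3 genes, Atp5g1, Atp5g2 and Atp5g3, which differ in their import sequences and give the same mature protein. Atp5g1 had signals of 198, 330.0, 220.4, 262 and 123 in controls 1 to 5 and 673, 689, 1107, 548 and 799.6 in Mll-deficient replicates 1 to 5. Every Mll-deficient array lay above every control. Atp5g1 rose by 1.71 ± 0.26 (adjusted p = 0.00144), a mean signal of 227 ± 76.7 to 763 ± 212 (SD, n = 5 per group). Its call held in all 10 fits that left out 1 array, with adjusted p up to 0.00659. Its only other probe set was under the filter, with mean signals of 11.3 and 11.4, so Atp5g1 was not tested by plain probe sets. The mean of both probe sets gave 0.84 (adjusted p = 0.00884). Atp5g2 had signals of 254, 476, 222, 348 and 106 in controls and 457, 469, 805, 344 and 395 in Mll-deficient cells, which overlapped, and its difference was 0.86 ± 0.33 (adjusted p = 0.138). Atp5g3 had the brightest probe set of the 3, with mean signals of 8525 in controls and 10163 in Mll-deficient cells. Its difference was 0.27 ± 0.20 (adjusted p = 0.490), with overlapping arrays.

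Ratios within each array show whether the probe sets of such related genes changed unequally, while the level of such a ratio carries no meaning. Some pairs, such as Atp5g1 and Atp5g3, set a dim probe set against a bright one. Control 5 was the highest control for 22 of the 28 brightest tested genes and the lowest for 13 of the 29 dimmest. Whether array quality or brightness bears on the ratios was not tested. The log2 ratio of Atp5g1 to Atp5g2 went from -0.21 ± 0.29 to 0.63 ± 0.21 (mean ± SD), a change of 0.85, and the 2 groups of arrays did not overlap (exact permutation test, two-sided, p = 0.00794, 0.0185 after adjustment over the 7 pairs compared). The smallest p this design allows is 0.00794. The log2 ratio of Atp5g1 to Atp5g3 changed by 1.44, also without overlap (exact p = 0.00794, adjusted 0.0185). Atp5g2 against Atp5g3 changed by 0.59, with overlapping arrays (exact p = 0.325, adjusted 0.398). The probe set of Atp5g1 changed more than those of both other c genes. Atp5g1 was already known to have the largest difference when its pairs were tested.

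The small membrane subunits also rose in part: 2 of 5 passed, with a median difference of 0.74 over the 5. Atp5k, subunit e, which helps the enzyme form dimers, had signals of 1346, 1225, 1077, 1390.3 and 1535 in controls and 2562, 2653, 7037, 3337 and 5664 in Mll-deficient cells. Its arrays did not overlap, and Mll-deficient replicates 3 and 5 were the highest. Atp5k rose by 1.57 ± 0.27 (adjusted p = 0.00328), and both of its other probe sets rose too, by 1.04 and 0.90 (adjusted p = 0.0354 and 0.0479 over all tested probe sets). The call held in all 10 fits without 1 array. Atp5mpl, a small proteolipid of the same part, had signals of 335, 265, 194, 246 and 373 in controls and 428, 392, 764, 528 and 689 in Mll-deficient cells, again without overlap. It rose by 0.94 ± 0.24 (adjusted p = 0.0329), and with the replicate block its adjusted p was 0.0521. Atp5j2, subunit f, had arrays that did not overlap and missed the threshold, with a difference of 0.74 ± 0.22 (adjusted p = 0.0537). Atp5l and Atp5md had differences of 0.51 ± 0.29 and 0.64 ± 0.24 and did not pass.

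Of the 5 genes of the catalytic head, called F1, 0 passed the test, and their median difference was 0.55. Atp5a1 encodes the alpha subunit and had the lowest difference of complex V, 0.07 ± 0.21 (adjusted p = 0.903). Its other tested probe sets, both dimmer, had 0.16 ± 0.29 and 0.60 ± 0.25. Atp5b, the beta subunit that carries the catalytic sites, had signals of 1595, 2316, 651, 1776 and 230.4 in controls and 1507, 2523, 2141, 1005 and 1177 in Mll-deficient cells. Control 5 had the lowest of those values, and the difference was 0.64 ± 0.48 (adjusted p = 0.492). Atp5d, the delta subunit, had arrays that did not overlap and a difference of 0.55 ± 0.19 (adjusted p = 0.110). Of the 4 genes of the peripheral stalk, which holds the head still, 0 rose, and their median difference was 0.30. Atp5o had the highest among them, 1.04 ± 0.36 (adjusted p = 0.101), with its lowest signal in control 5. Another probe set of Atp5o, ending in _x_at, rose by 1.07 ± 0.25 (adjusted p = 0.0258 over all tested probe sets).

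**Figure D2:**
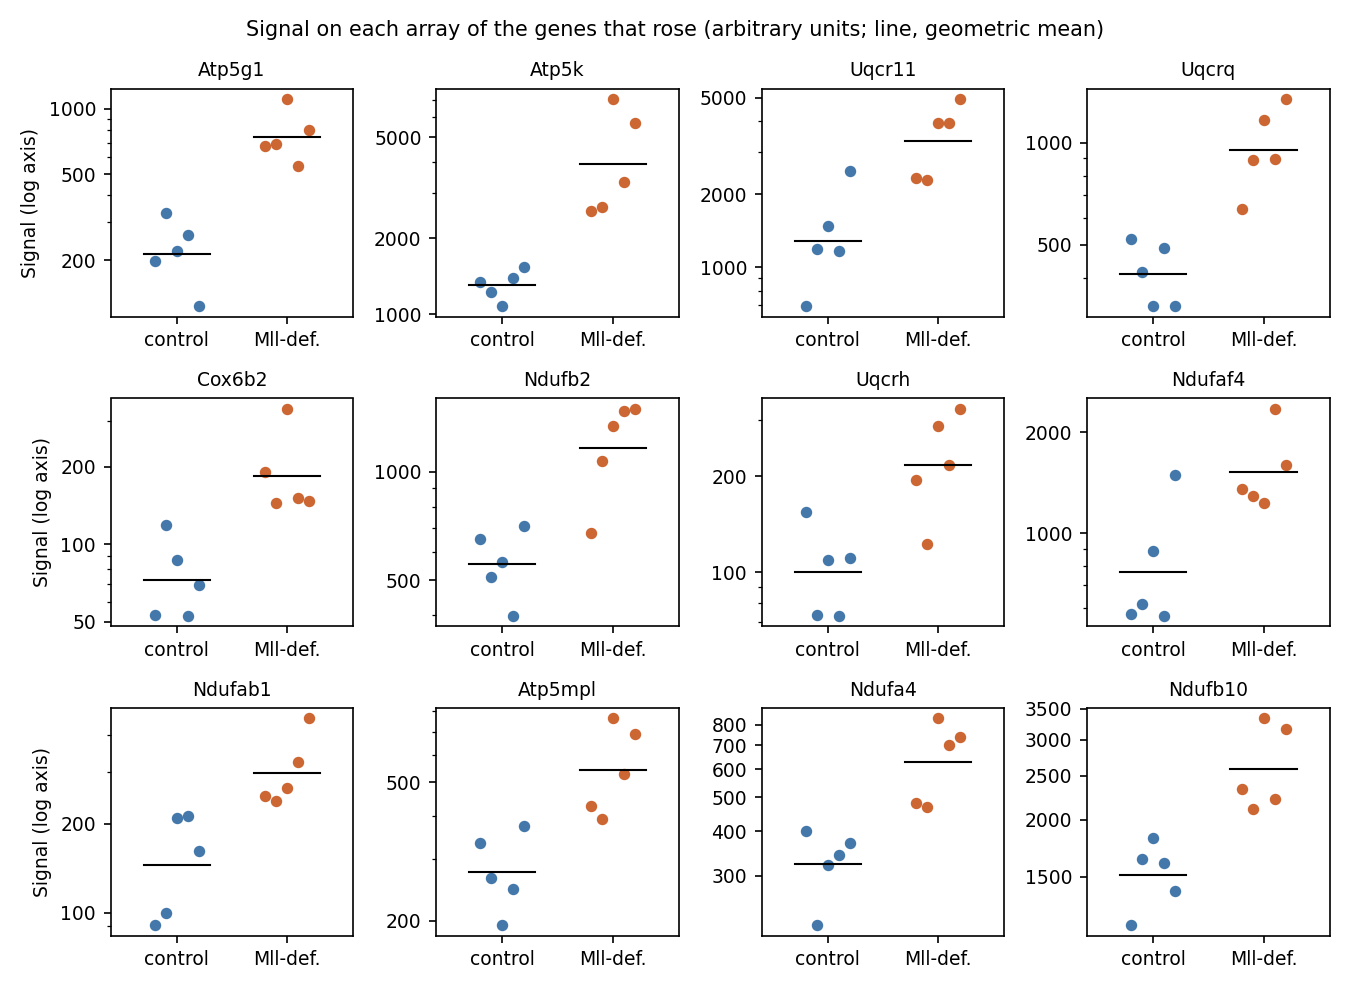
Signals of the 12 genes that rose, 1 panel per gene, on a log axis in arbitrary units; points are single arrays, replicates 1 to 5 from left to right in each group, and lines are geometric means. The groups do not overlap for 8 of the 12. The highest point is Mll-deficient replicate 3 or 5 in 11 of the 12 panels.

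Complex III had the highest median, and the 3 genes of it that rose are among its 5 small subunits, whose median was 1.01. Uqcr11, the smallest of them, had signals of 689, 1184, 1477, 1162 and 2499 in controls and 2325, 2296, 3927, 3931 and 4926 in Mll-deficient cells. Mll-deficient replicates 3, 4 and 5 were the highest, and replicates 1 and 2 lay below control 5. Uqcr11 rose by 1.36 ± 0.30 (adjusted p = 0.0168), and without Mll-deficient replicate 5 its adjusted p was 0.0549. Uqcrq, the ubiquinone-binding protein, had signals of 522, 416, 330.0, 490.4 and 329.6 in controls and 639.5, 889.6, 1164, 895 and 1343 in Mll-deficient cells, with no overlap. It rose by 1.19 ± 0.23 (adjusted p = 0.00778), and the call held in all 10 fits without 1 array. The other 3 probe sets of Uqcrq were dim, with control means of 24.8 or lower, and the tested plain one of these had a difference of -0.25. Averaged over all its probe sets, Uqcrq had 0.21 and did not pass (adjusted p = 0.473). Uqcrh, the hinge protein near cytochrome c1, had signals of 155, 73.5, 109, 73.1 and 111 in controls and 195, 122, 289, 217 and 326 in Mll-deficient cells, which overlapped. It rose by 1.01 ± 0.27 (adjusted p = 0.0404). It did not pass with no filter (adjusted p = 0.0638) or from its plain probe set (0.69, adjusted p = 0.135).

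The catalytic subunits of complex III did not pass. Cyc1, cytochrome c1, had signals of 4688, 6219, 7152, 5667 and 9408 in controls and 9541, 8012, 11530.1, 8646 and 9490.4 in Mll-deficient cells, and a difference of 0.54 ± 0.20 (adjusted p = 0.139). Uqcrfs1, the Rieske iron-sulfur protein, had a difference of 0.63 ± 0.26 (adjusted p = 0.184), and its lowest signal, 252, was in control 5. The core proteins Uqcrc1 and Uqcrc2 had differences of 0.91 ± 0.32 (adjusted p = 0.114) and 0.38 ± 0.25 (adjusted p = 0.427). Uqcrb had the lowest of the complex, 0.19 ± 0.23 (adjusted p = 0.698). A dimmer probe set of Uqcrb had 0.89 ± 0.27 (adjusted p = 0.0795 over all tested probe sets). No gene of complex III was below 0.

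In complex I, 5 genes rose, of which 3 encode supernumerary subunits, 1 an assembly factor, and 1, Ndufa4, a protein now placed in complex IV. Ndufb2 and Ndufb10 belong to the membrane arm. Ndufb2 had signals of 652, 512, 563, 399 and 707 in controls and 677, 1074, 1339.6, 1472 and 1496 in Mll-deficient cells, which overlapped. It rose by 1.05 ± 0.24 (adjusted p = 0.01998), while a plain probe set of the same gene, dimmer at a control mean of 44.0, had -0.23. Averaged over its probe sets, Ndufb2 had 0.52 and did not pass (adjusted p = 0.141). Ndufb10 had signals of 1175, 1644, 1829.9, 1609 and 1399 in controls and 2335, 2114, 3339, 2225 and 3168 in Mll-deficient cells, without overlap. Its rise was 0.77 ± 0.20 (adjusted p = 0.0367), and the call was lost with no intensity trend (0.0509) and with the replicate block (0.0528). Ndufab1, an acyl carrier protein that also serves mitochondrial fatty acid synthesis, had signals of 90.8, 100.002, 209, 212 and 162 in controls and 248, 239, 265, 324 and 454 in Mll-deficient cells. Those arrays did not overlap, and it rose by 0.95 ± 0.27 (adjusted p = 0.0484). Averaged over its 5 probe sets, Ndufab1 had a difference of 0.37 and did not pass. Its call was lost under 6 of 12 alternatives, with adjusted p from 0.0507 to 0.143.

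Ndufaf4, an assembly factor, had signals of 576, 614, 885, 567 and 1489 in controls and 1359, 1293, 1227, 2349 and 1596 in Mll-deficient cells, which overlapped. It rose by 0.97 ± 0.27 (adjusted p = 0.0482). The call was lost under 5 of 12 alternatives, an offset of 1, no filter, plain _at probe sets, no intensity trend and the replicate block, with adjusted p from 0.0513 to 0.0665. The other 7 assembly factors did not pass, and the median over all 8 was 0.41. Ndufa4 had signals of 401, 217, 321, 343 and 372 in controls and 482, 470.1, 834, 699 and 739 in Mll-deficient cells, without overlap, and rose by 0.92 ± 0.23 (adjusted p = 0.0282). Its paralog Ndufa4l2 was under the filter, with mean signals of 6.2 in controls and 4.88 in Mll-deficient cells.

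The core subunits of complex I, which carry the electrons, had a median difference of 0.49, and 0 of 6 passed. Ndufv1, which binds NADH, came closest. Its signals were 3071, 3649, 3864, 3851 and 4247 in controls and 5453, 4728, 5912, 5842 and 6908 in Mll-deficient cells, without overlap, and its difference was 0.62 ± 0.18 (adjusted p = 0.0506). Ndufs1, the largest subunit of the electron-carrying arm, had a difference of 0.36 ± 0.22 (adjusted p = 0.394). Among the 27 tested supernumerary subunits the median was 0.46. Differences in complex I ran from 0.0041 ± 0.28 for Ndufs4 (adjusted p = 0.996) to 1.05 ± 0.31 for Ndufa7, whose adjusted p was 0.0580. Ndufs4 had mean signals of 223 ± 96.8 and 214 ± 57.2 (SD, n = 5 per group). The probe set shared by Ndufs6 and Ndufs6b had a difference of 0.81 ± 0.23 (adjusted p = 0.0634 over all tested probe sets), with arrays that did not overlap. Of 9 tested probe sets that name a respiratory chain gene beside other genes, 0 passed.

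Complex II, which is also an enzyme of the citric acid cycle, had 4 differences close together from the brightest probe sets, and 0 passed. With the mean of all probe sets its median was 0.17. Sdha, the flavoprotein, had signals of 4309, 4270.5, 4817, 5026 and 5513 in controls and 4859, 5046, 5981, 6515 and 6903 in Mll-deficient cells, and a difference of 0.28 ± 0.18 (adjusted p = 0.396). Sdhb, the iron-sulfur protein, had 0.41 ± 0.20 (adjusted p = 0.245). The membrane anchors Sdhc and Sdhd had 0.35 ± 0.29 (adjusted p = 0.530) and 0.30 ± 0.43 (adjusted p = 0.745). Sdhd had signals of 315, 246, 196, 319.9 and 48.4 in controls, of which control 5 was far the lowest, and 152, 551, 142, 227 and 294 in Mll-deficient cells. Without control 5 the difference of Sdhd was -0.12. Other tested probe sets had -0.01 ± 0.21 and -0.09 ± 0.26 for Sdha, 0.04 ± 0.24 for Sdhc and -0.02 ± 0.31 for Sdhd. As a mean deviation over the 4 genes, control 5 lay at -0.94 and the other controls at -0.16 to 0.10. The Mll-deficient arrays lay at 0.05 to 0.35.

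Complex IV had the lowest median from the brightest probe sets, but not from plain _at probe sets, where its median was 0.58. The ubiquitous subunits of complex IV had 0 of 9 past the test, with a median of 0.36. Its largest change was in Cox6b2, described in testis as the counterpart of Cox6b1. Cox6b2 had signals of 53.4, 119, 87.2, 52.8 and 69.7 in controls and 190.2, 145, 335, 152 and 148 in Mll-deficient cells, without overlap. It rose by 1.16 ± 0.27 (adjusted p = 0.0199), while Cox6b1 had a difference of 0.29 ± 0.24 (adjusted p = 0.548). A dimmer plain probe set of Cox6b1 had 0.76 ± 0.23 (adjusted p = 0.0783 over all tested probe sets). From the brightest probe sets, the log2 ratio of Cox6b2 to Cox6b1 changed by 0.87 (exact permutation test, p = 0.0238, 0.0417 after adjustment over the 7 pairs), with 3 of 5 Mll-deficient arrays above every control. The ratio to the dimmer probe set was not tested. At signals this low the offset of 16 understates a fold.

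Cox7c had the lowest difference of all tested respiratory chain genes, -0.46 ± 0.27 (adjusted p = 0.349), with signals of 150.04, 79.6, 112, 145 and 91.3 in controls and 65.8, 56.1, 49.9, 131 and 107 in Mll-deficient cells. Cox7a2l, which joins complexes III and IV into supercomplexes, had -0.24 ± 0.26 (adjusted p = 0.658), and Cox7a2 had 0.56 ± 0.22 (adjusted p = 0.152). The log2 ratio of Cox7a2l to Cox7a2 went from 0.70 ± 0.36 to -0.11 ± 0.37, a change of -0.80, and the groups did not overlap (exact permutation test, p = 0.00794, adjusted 0.0185). That ratio shows unequal change between the probe sets. Cox4i1, the first isoform of subunit 4, had 0.68 ± 0.27 (adjusted p = 0.159), and its partner Cox4i2 was under the filter. Cox6a1 had 0.38 ± 0.20 (adjusted p = 0.311) and Cox6a2, of heart and muscle, 0.04 ± 0.26 (adjusted p = 0.949). Cox8a had 0.36 ± 0.28 (adjusted p = 0.519) and Cox8c 0.11 ± 0.29 (adjusted p = 0.871). The ratios of Cox6a2 to Cox6a1 and of Cox8c to Cox8a changed by -0.34 and -0.24 (exact permutation test, p = 0.341 and 0.524; adjusted 0.398 and 0.524). Cox7a1 and Cox8b, the muscle isoforms, were under the filter.

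**Figure D3:**
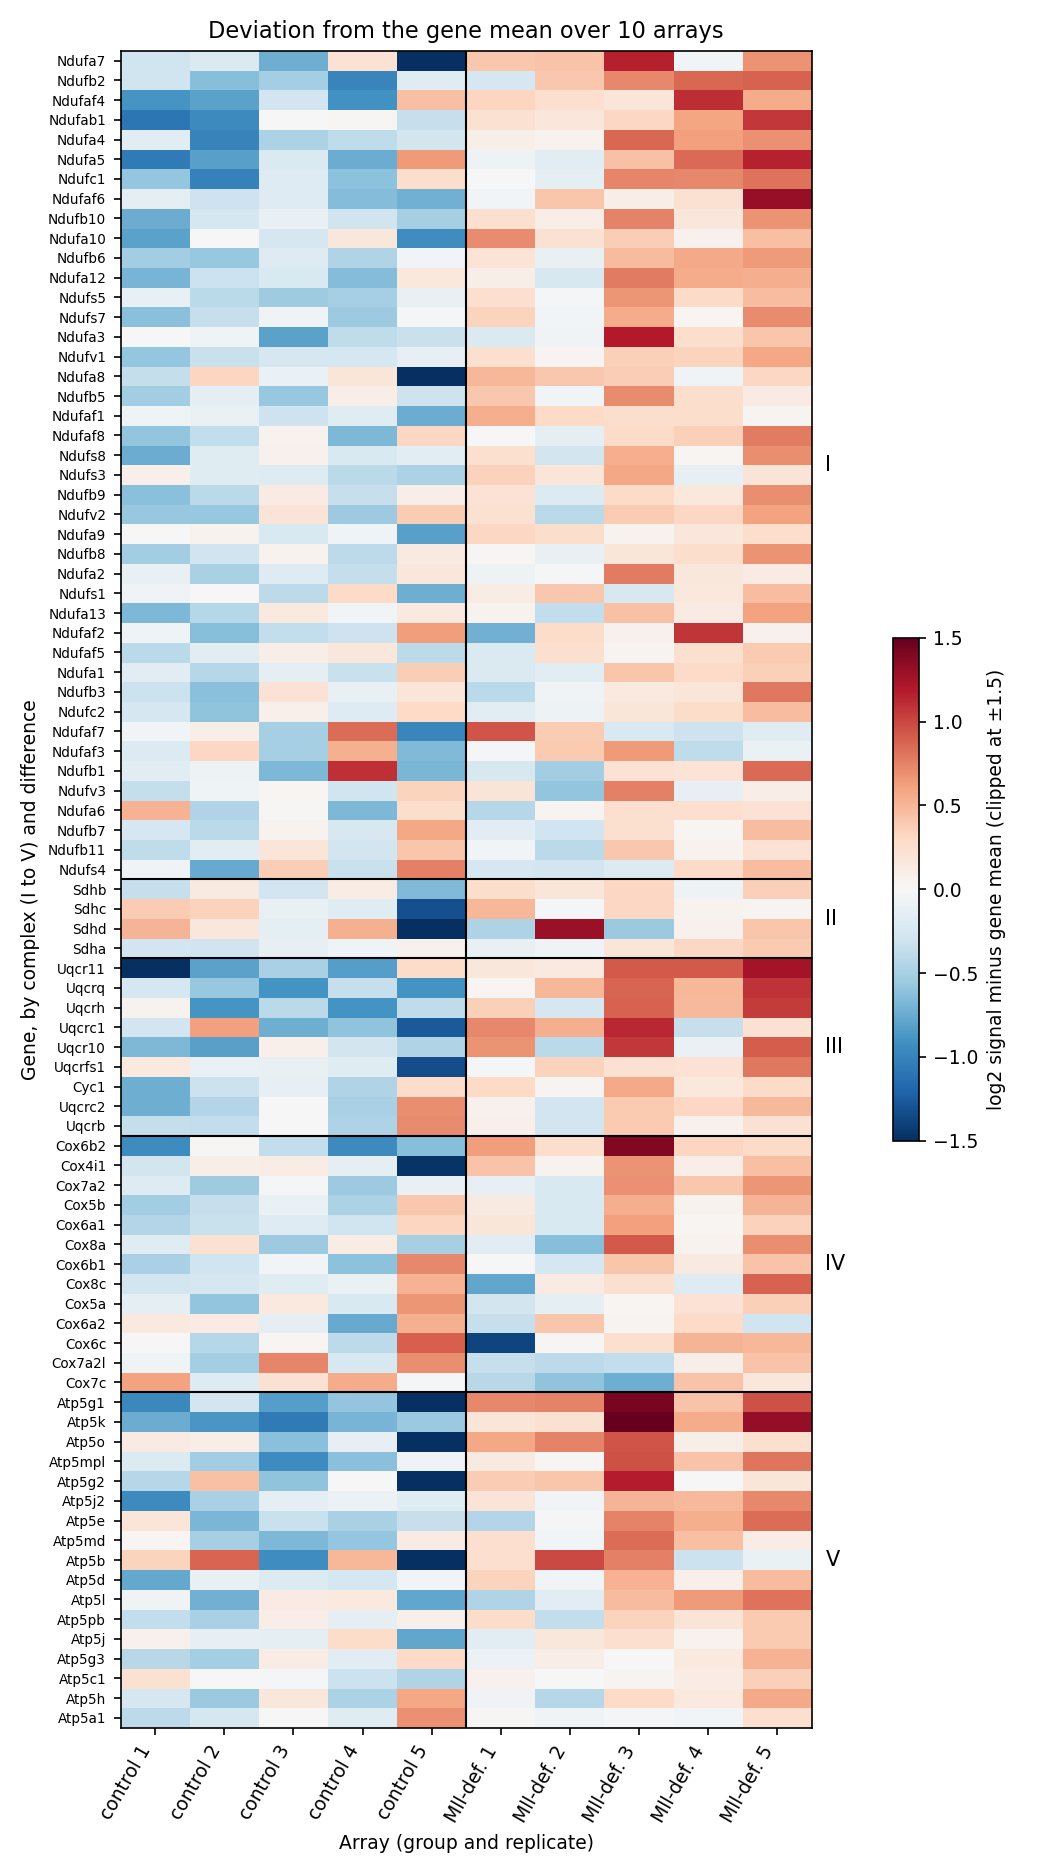
Each row is 1 tested gene, grouped by complex, and each column 1 array (5 control, 5 Mll-deficient); colour gives the deviation from the gene's mean over the 10 arrays on the log2(signal + 16) scale. The columns of Mll-deficient replicates 3 and 5 are the darkest toward higher values, and control 5 is uneven, high in some rows and low in others.

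The shift was unequal among the Mll-deficient arrays. Averaged over all 91 genes as a deviation from each gene's mean, the controls lay at -0.30, -0.29, -0.19, -0.24 and -0.22 and the Mll-deficient arrays at 0.07, 0.02, 0.42, 0.23 and 0.50, in order of replicate. Group means were -0.25 ± 0.05 and 0.25 ± 0.21 (SD, n = 5 arrays). The Mll-deficient arrays all lay above the controls, and their SD was the wider. The same held without overlap for complexes I, III and V, while the arrays overlapped for complexes II and IV. Mll-deficient replicates 3 and 5 held the highest value of all 10 arrays for 60 of the 85 tested genes, or 70.6%, against 23.6% of all tested genes. Replicate 2 was the lowest of the Mll-deficient group for 45 of the 85. Control 5 was the highest control for 40 of them and the lowest for 25.

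**Figure D4:**
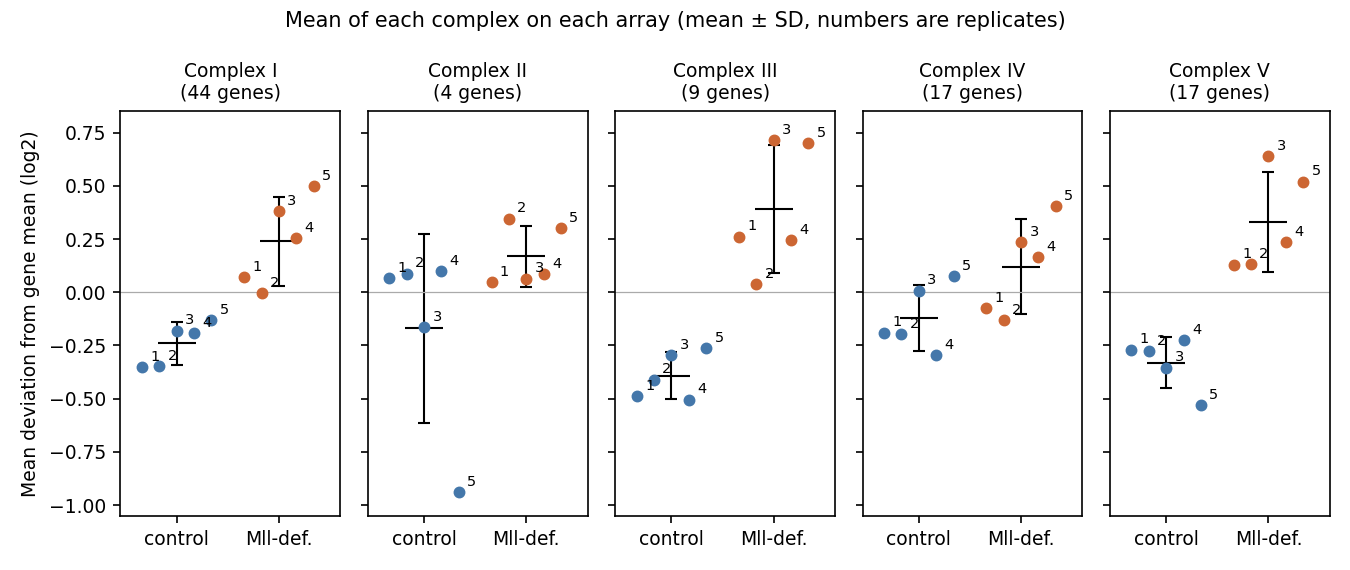
Mean deviation of each complex on each array, in log2 units from each gene's mean over 10 arrays; points are arrays, numbered by replicate, and bars are group means ± SD (n = 5). Groups do not overlap for complexes I, III and V. Control 5 lies far below the other arrays in complex II, at -0.94.

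The count of risen genes depended on single arrays. It was 4 without Mll-deficient replicate 3 and 4 without replicate 5, where 2.15% and 1.92% of all tested genes were called higher. It was 7, 6 and 6 without controls 1, 3 and 4, against 2.11%, 2.43% and 2.29%. Without control 5 it was 21, against 4.4%. With the 3′ to middle ratio of each array as a covariate it was 34, against 7.72% of all tested genes higher in that fit, and with array weights 20, against 4.65%. Atp5g1, Atp5k and Uqcrq kept their calls in all 10 fits without 1 array. Uqcr11 lost its call without Mll-deficient replicate 5. Cox6b2 lost it without controls 1 and 4 and Mll-deficient replicate 3 (adjusted p up to 0.0603), and Ndufb2 without control 4 and Mll-deficient replicates 3 and 5 (up to 0.0631). The other 6 calls were less stable. Atp5mpl lost its call without controls 1, 3 and 4 and Mll-deficient replicates 3, 4 and 5 (up to 0.0964), and Ndufa4 without controls 2, 3 and 4 and the same 3 replicates (up to 0.0815). Ndufb10 lost it without controls 1, 3 and 4 and Mll-deficient replicates 1, 3 and 5 (up to 0.105). Uqcrh kept it in the fits without control 1, control 5 or Mll-deficient replicate 2 (up to 0.119 in the rest). Ndufab1 kept it without control 4 or control 5 (up to 0.136 in the rest), and Ndufaf4 without control 5 (up to 0.124 in the rest). Differences of these 12 genes stayed above 0 in each of those fits.

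Differences varied with probe brightness. The 29 dimmest tested genes had a median difference of 0.56 with 6 risen, the 28 of middle brightness 0.64 with 6 risen, and the 28 brightest 0.33 with 0 risen. Control 5 was the highest control for 22 of the 28 brightest and the lowest for 1, but the lowest for 13 of the 29 dimmest. Across the 85 genes, difference and mean signal had a Spearman correlation of -0.23, and across all tested genes 0.07. Within complexes it was -0.10 over 42 genes of complex I, -0.63 over 9 of complex III, 0.20 over 13 of complex IV and -0.58 over 17 of complex V. These are descriptions over genes that share the same arrays. Whether brightness bears on the differences was not tested.

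**Figure D5:**
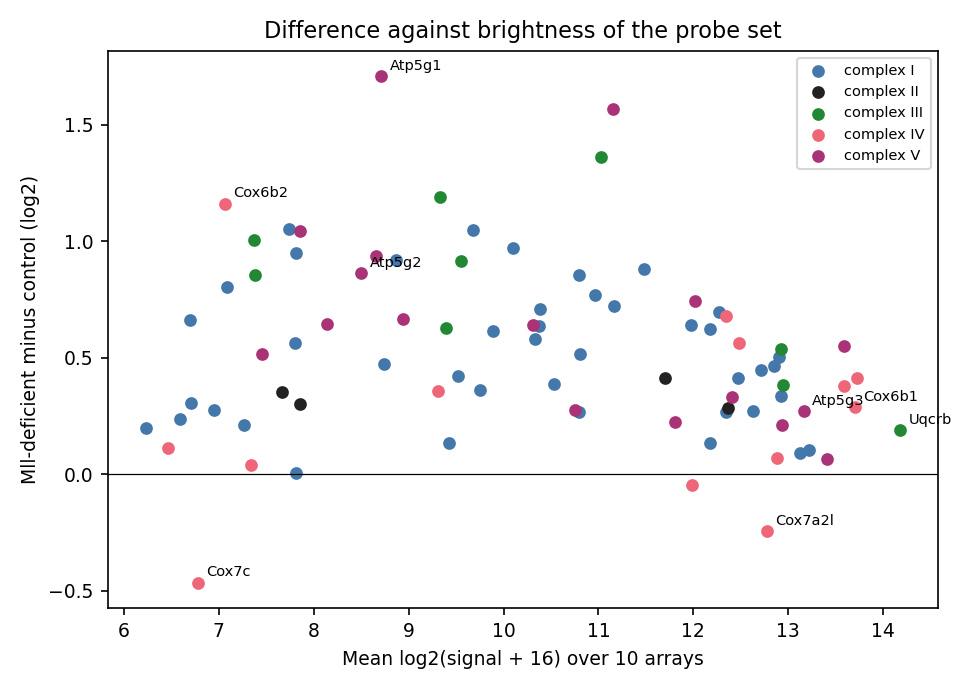
Difference of each of the 85 tested genes (Mll-deficient minus control, log2(signal + 16)) against its mean log2 signal over 10 arrays, coloured by complex. The 12 risen genes lie among the dim and middle genes, and 0 of the 28 brightest rose.

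Other probe sets of the same genes were also above 0 for the most part. Of 78 tested probe sets that had not been used for a gene, 6 rose, 0 fell and 62 were above 0 (median 0.50). Over all 163 tested probe sets of these genes 14 rose, against a share of 2.12% higher and 1.16% lower among all tested probe sets. The 6 others that rose belonged to Atp5j2, Atp5k (2 of them), Atp5o, Ndufa12 and Ndufc1. Of 48 genes with more than 1 tested probe set, 34 had differences above 0 in each, 1 (Cox7a2l) had all below 0, and 16 spanned more than 0.5. Probe sets ending in _x_at or _s_at, which can match several transcripts, gave 7 and 14 of the 91 genes.

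Genes around the respiratory chain were measured in lists of their own. Over all tested genes, 3.76% were called higher. Among 43 other tested assembly factors and helpers of complexes I to V, 3 rose: Uqcc2, an assembly factor of complex III, by 1.36 ± 0.29 (adjusted p = 0.0125), Higd1a, a small inner membrane protein, by 1.04 ± 0.22 (adjusted p = 0.0134), and Atpif1, the inhibitor of ATP synthase, by 0.88 ± 0.22 (adjusted p = 0.0265). The median difference of the list was 0.36, and 37 of 43 were above 0. Of 19 tested genes for ubiquinone synthesis, cytochrome c and other routes of electrons, 2 rose: Coq3, by 0.89 ± 0.22 (adjusted p = 0.0251), and Dhodh, which links pyrimidine synthesis to the chain, by 1.07 ± 0.21 (adjusted p = 0.00749). The median was 0.11, and Cycs, cytochrome c, had 0.61 ± 0.25 (adjusted p = 0.165). Of 6 tested carriers of ATP and phosphate 0 passed, with a median of 0.32.

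Among 20 tested regulators of mitochondrial gene expression, 3 rose, against 3.76% of all tested genes, and the median was 0.08. They were Pprc1, a coactivator, by 0.86 ± 0.24 (adjusted p = 0.0436), and Lrpprc and Slirp, partners that stabilise mitochondrial messenger RNA, by 0.95 ± 0.26 (adjusted p = 0.0400) and 1.17 ± 0.25 (adjusted p = 0.0133). Nrf1 and Gabpa had differences of 0.04 ± 0.31 (adjusted p = 0.965) and -0.08 ± 0.21 (adjusted p = 0.871). Tfam, which packages mitochondrial DNA, had 0.67 ± 0.35 (adjusted p = 0.299). ND5, a core subunit of complex I, was the mitochondrially encoded gene with a probe set here, and its difference was -0.26 ± 0.29 (adjusted p = 0.676).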

How the data were processed

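RNA of sorted cells from 5 control and 5 Mll-deficient mice was amplified, biotin-labelled and hybridised to 1 array per mouse, per the labels' protocols. The authors deposited linear intensity values; the tool was MAS5 5.0, as the submitters' processing notes have it; the 2% trimmed mean of every array was 150.0, and the number of arrays limits the precision. Of 45101 probe sets, 64 were controls and were left out, 34945 named 1 gene symbol in the platform annotation, 932 named several and were used for no gene, and 34741 were updated through Entrez identifiers to RefSeq symbols. Per gene the brightest probe set was used. An offset of 16 was added before log2, and 12580 of 18193 genes above the 40th percentile of probe set means were tested, all 10 arrays in 1 fit (limma 3.58.1, R 4.3.3; lmFit, then trended eBayes, two-sided; Benjamini-Hochberg adjustment over all tested genes, threshold 0.05). Single within-array ratios were tested by exact permutation of 252 assignments. The fit was tested on simulated data.

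Genes named are those past the threshold, the highest and lowest of each complex, catalytic subunits, all of complex II and the paralog sets. The members and lists were chosen with earlier results of these data known. The labels call the samples biological replicates, 1 mouse each. Alternatives covered the offset, normalization, filter, probe set, symbols, variance prior, array weights, RNA quality, replicate block and each array left out. Genes beside these that were singled out, such as Atp5j2, Atp5d, Atp5o and Ndufs6, were chosen after their values were seen.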

Additional observations from a re-analysis of the deposited data

Results flagged for a closer look

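In 82 groups of 5 arrays checked, 6 values lay farther from the rest of their group than Dixon's criterion allows; chance flags about 1 group in 20. Control replicate 5 was the outlier in 5 of them. On the log2(signal + 16) scale it was lowest for Sdhd, at 6.01, for Uqcrfs1, at 8.06, and for Cox4i1, at 10.87, and it lay at 6.99 for Cox8c, above the other controls. Its mean deviation over the 4 genes of complex II was -0.94. Mll-deficient replicate 5 lay at 13.66 for Atp5a1, above the other Mll-deficient arrays.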

How the results depend on the processing

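The count of risen genes ranged from 8 to 18 under these alternatives: offsets of 1 and 64, quantile normalization, median centring, no filter, a 60th percentile filter, the mean of all probe sets, plain _at probe sets, and no intensity trend. It was 20 with array weights and 34 with the RNA quality covariate, where 1618 of all genes passed. Leaving out 1 array gave 4 to 21 risen genes and 317 to 875 over all genes, against 12 and 694. With the replicate block 12 rose, of which 9 were shared, and 588 of all genes passed; Atp5mpl, Ndufaf4 and Ndufb10 lost their calls. Same-numbered arrays correlated at 0.08, 0.09, -0.17, -0.23 and 0.28. These values do not settle whether the numbers pair the mice. The median of complex IV was 0.58 with plain _at probe sets, against 0.29. In that setting complexes I, II, III and V had medians of 0.40, 0.33, 0.69 and 0.62, so complex IV was not the lowest.

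Some genes near 0, and Ndufb2 and Uqcrq, changed sign under an alternative. Ndufs4 was at -0.0060 with an offset of 64, -0.082 with the mean of all probe sets, -0.073 with the RNA quality covariate, and -0.18 to 0.19 without 1 array. Atp5a1 was at -0.078 after quantile normalization and -0.026 to 0.24 without 1 array. Means of all probe sets gave -0.19 for Cox6a2 and -0.25 for Cox8c, and single arrays left out gave -0.14 to 0.18 and -0.093 to 0.32. Plain _at probe sets gave -0.23 for Ndufb2, -0.25 for Uqcrq and -0.011 for Sdha, which is another probe set in each case. Sdhd ran from -0.12 to 0.48 without 1 array. For the others the cause was not tested.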
